A study of Mus musculus with 16 samples.

Results

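Tnfsf4, Cd80, Cd86, Cd55 and Icam1 encode 5 immune molecules of the cell surface, and their messenger RNA levels were followed in mouse blood progenitors with and without gamma radiation. Each gene was taken from the rows of the deposited array table that carry its symbol and no other, and where a gene had several rows the row with the highest mean over the 16 arrays was used. The 5 genes had 6 such rows among 21640 rows with a single symbol, since Cd80 had 2, and both rows of Cd80 are given. The genes were chosen with their responses to radiation in these arrays known, so those responses are described with no test, while the differences between genotypes and between cell types, and those between their responses, are tested.

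The cells were bone marrow cells of C57BL/6J mice of 2 genotypes, WT and Parp-2-/-, the latter without the DNA damage sensor Parp-2. The LSK population (Lin-Sca1+c-Kit+) contains the blood stem cells together with early multipotent progenitors, whereas MP cells (Lin-Sca1-c-Kit+) are committed to the myeloid lines. Each genotype and cell type was measured unirradiated and 2.5 hours after 5 Gy, which makes 8 groups of 2 arrays, and each array held RNA of a pool of at least 3 mice. The pools are numbered, but the labels do not say that they came from separate experiments, so the p-values measure only the spread between these pools. The study asks how the genotypes differ at rest and in their response to radiation.

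The first 3 of these molecules signal to T cells. Tnfsf4 (OX40 ligand) is a TNF family ligand that binds OX40 on activated T cells and prolongs their response, and Cd80 and Cd86 are the B7 ligands that bind the activating receptor CD28 and the inhibitory receptor CTLA-4. Cd55 (decay-accelerating factor) protects a cell from complement by breaking up the convertases that form on its surface, and it also binds the adhesion receptor CD97. Icam1 is the ligand of the leukocyte integrins LFA-1 and Mac-1, and its gene is a classical target of NF-kappaB in inflamed endothelium and leukocytes.

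The promoters are shown because the genes are described by how they move together after radiation. RefSeq's table for the build GRCm38.p6 had an entry for 3 of the 5 genes, Cd80, Cd55 and Icam1, each running from 250 bases before a start that the table uses to 50 bases after it. For Icam1 this is the start of the annotated gene, while for Cd80 and Cd55 it lies inside the annotated range of the gene. In the sequences below, written 5′ to 3′ on the strand of the gene, the capitals mark matches on either strand to the NF-kappaB-like motif GGNNNTTCC. The Cd80 stretch is chr16:38458683-38458982 on the plus strand, that of Cd55 is chr1:130462695-130462994 on the minus strand, and that of Icam1 is chr9:21015690-21015989 on the plus strand.
Cd80: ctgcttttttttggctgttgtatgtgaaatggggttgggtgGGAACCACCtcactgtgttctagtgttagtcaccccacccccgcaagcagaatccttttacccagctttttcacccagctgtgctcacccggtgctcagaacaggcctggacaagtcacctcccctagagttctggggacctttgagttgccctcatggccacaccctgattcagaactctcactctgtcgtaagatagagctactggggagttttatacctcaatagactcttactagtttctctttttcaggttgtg
Cd55: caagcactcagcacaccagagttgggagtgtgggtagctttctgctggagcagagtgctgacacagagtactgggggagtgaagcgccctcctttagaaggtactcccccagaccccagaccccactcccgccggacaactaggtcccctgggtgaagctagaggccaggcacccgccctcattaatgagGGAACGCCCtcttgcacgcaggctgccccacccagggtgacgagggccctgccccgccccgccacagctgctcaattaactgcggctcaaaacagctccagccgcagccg
Icam1: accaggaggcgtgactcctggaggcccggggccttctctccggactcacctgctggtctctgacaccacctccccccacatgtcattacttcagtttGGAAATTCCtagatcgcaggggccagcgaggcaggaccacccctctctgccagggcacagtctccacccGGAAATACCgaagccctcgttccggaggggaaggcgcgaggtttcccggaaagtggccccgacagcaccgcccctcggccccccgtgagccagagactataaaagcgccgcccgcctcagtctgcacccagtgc

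Icam1 held 2 matches, GGAAATTCC starting 153 bases before the table's start and GGAAATACC starting 84 bases before it, and the first reads as a match on both strands. Cd80 and Cd55 held 1 each, GGAACCACC at 209 bases and GGAACGCCC at 60 bases before the start that the table uses. This motif occurs in 18.5% of the 32851 promoters of the table. Cd80 also held the AP-1 motif TGANTCA as TGATTCA (7.81% of all promoters), and Icam1 the STAT motif TTCNNNGAA as TTCCCGGAA (8.30%), which does not overlap its NF-kappaB-like matches. A p53 half-site (present in 8.36% of promoters) was searched on both strands and matched in none of the 3 windows. The motifs were picked after the array values were seen, and a match in a window is a description of its letters.

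All values are log2 intensities after robust multi-array averaging (RMA), so a difference of 1 is a change of 2-fold. The 16 arrays did not share 1 distribution, and the values spread slightly less on LSK than on MP arrays. The array medians lay between 4.74 and 4.92, and a level under its array's median is treated as not shown to be above background. A fold change from a group whose arrays both lie under their medians is then a lower bound, and a difference between 2 such groups is not a measured one. Icam1 lay above the array median on 16 of 16 arrays, Cd55 on 15, the main row of Cd80 on 13, Tnfsf4 on 9, the other row of Cd80 on 8 and Cd86 on 1. Levels of different genes are not set against each other, since each row has its own probes. The arrays hold bulk RNA, so fewer cells of a type and less RNA per cell cannot be told apart.

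The arrays followed their labels. Parp2 read 5.70 to 6.77 in Parp-2-/- LSK against 7.40 to 7.96 in WT LSK, and 6.74 to 7.11 against 7.98 to 8.40 in MP. The 6 measured LSK markers had a mean of 7.71 to 8.19 on LSK arrays and 6.16 to 6.73 on MP arrays, and the 8 MP markers a mean of 9.08 to 9.49 on MP arrays and 7.16 to 7.67 on LSK arrays. The sort marker Kit read 8.62 to 9.46. Pools of 1 group correlated over all rows at 0.934 (Parp-2-/- LSK, irradiated) to 0.985 (WT MP, irradiated).

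**Figure D1:**
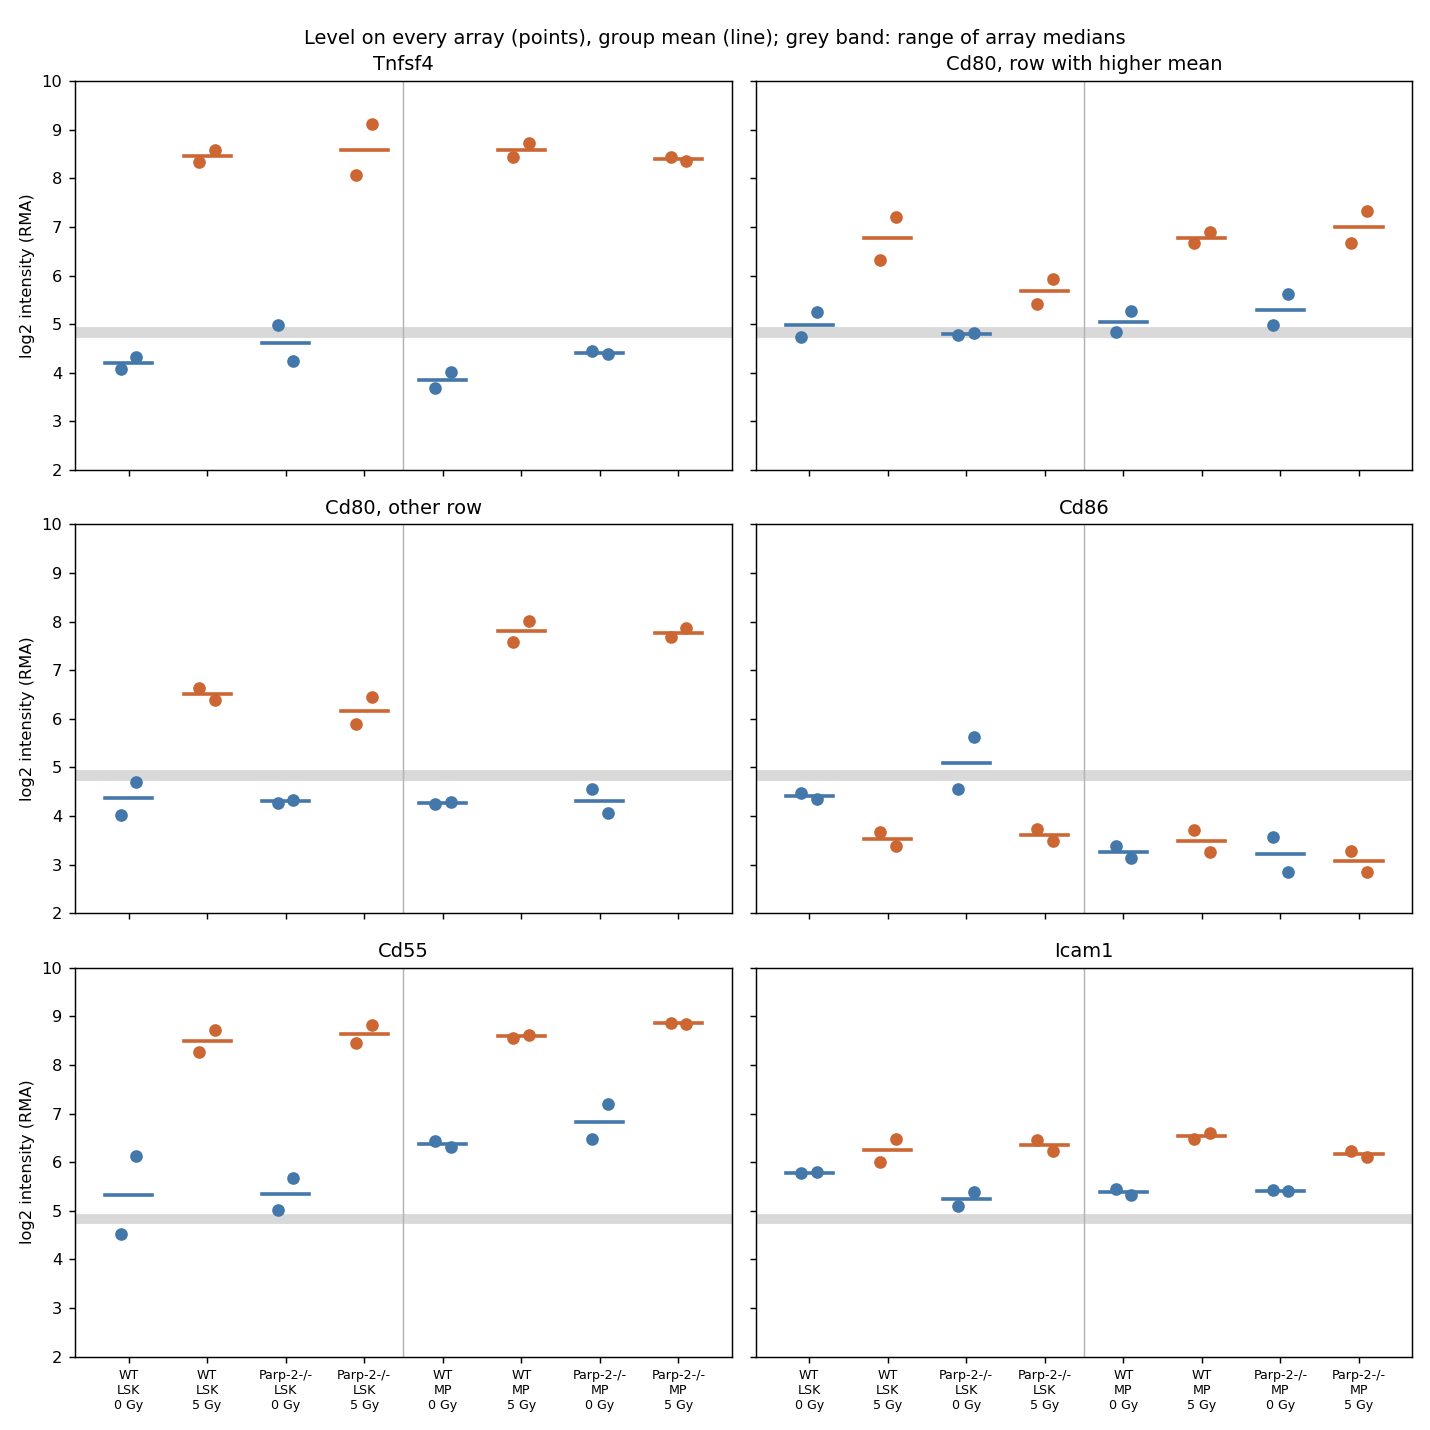
The log2 intensity of each gene is plotted on every array (points) with the group mean (line) in the 8 groups, unirradiated in blue and 5 Gy in orange, and the grey band is the range of the array medians. Irradiated arrays of Tnfsf4 and Cd55 sit between 8.06 and 9.12, above all unirradiated arrays, while 15 of the 16 Cd86 arrays sit under their array median.

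After radiation the messages of Tnfsf4, Cd80, Cd55 and Icam1 were higher in all 4 combinations of genotype and cell type. Tnfsf4 was higher by 3.97 to 4.73 log2 units, Cd55 by 2.02 to 3.30, Cd80 by 0.88 to 1.78 and Icam1 by 0.47 to 1.15. Cd86, the second B7 ligand, was not higher with them: it was lower in LSK cells and differed little in MP cells, at levels close to background. In each of the 4 responses 4 of the 5 genes had both irradiated arrays above both unirradiated ones, which 16.4% of all rows did in WT LSK, 17.2% in Parp-2-/- LSK, 17.5% in WT MP and 17.3% in Parp-2-/- MP. These counts describe genes chosen on the same responses and are read no further.

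Tnfsf4, the OX40 ligand, was under the array median on 7 of 8 unirradiated arrays and far above it on all irradiated ones. In WT LSK cells it read 4.08 and 4.33 unirradiated against 8.33 and 8.58 after 5 Gy, a difference of 4.25 ± 0.31 (log2, SE, n = 2 pools per group), at least 19.0-fold. In WT MP cells it read 3.68 and 4.01 against 8.43 and 8.73, a difference of 4.73 ± 0.31 or at least 26.6-fold. The irradiated arrays of both cell types lay far above the unirradiated ones, with no overlap. In Parp-2-/- LSK cells the levels were 4.99 and 4.24 against 8.06 and 9.12, a difference of 3.97 ± 0.31 or 15.7-fold. In Parp-2-/- MP cells they were 4.44 and 4.38 against 8.43 and 8.36, a difference of 3.99 ± 0.31 or at least 15.9-fold. The spread was widest in Parp-2-/- LSK cells, where leaving out 1 irradiated pool gave differences of 3.44 to 4.50.

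The 8 group means of Tnfsf4 fell into 2 blocks. The 4 irradiated groups ran from 8.59 in Parp-2-/- LSK through 8.58 in WT MP and 8.46 in WT LSK to 8.40 in Parp-2-/- MP, and each overlapped its neighbour. The 4 unirradiated groups ran from 4.62 in Parp-2-/- LSK through 4.41 in Parp-2-/- MP and 4.21 in WT LSK to 3.84 in WT MP. Of these only the first 2 overlapped, but all but 1 of their 8 arrays lay under the array median, so this order has no measured meaning.

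Cd80 was measured by 2 rows, and they did not give the same size. The row with the higher mean (5.79 over 16 arrays) is annotated with complementary DNA accessions of Cd80 other than its RefSeq transcript, and the other row (mean 5.69) is annotated with the RefSeq transcript. Which part of the gene each row covers was not analysed here.

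By the main row, WT LSK cells read 4.73 and 5.24 unirradiated and 6.32 and 7.21 after 5 Gy, a difference of 1.78 ± 0.33 or 3.43-fold. WT MP cells read 4.83 and 5.26 against 6.66 and 6.90, a difference of 1.74 ± 0.33 or 3.33-fold. In both cell types every irradiated array lay above every unirradiated one. Parp-2-/- MP cells read 4.98 and 5.61 against 6.66 and 7.32, a difference of 1.70 ± 0.33 or 3.24-fold. Parp-2-/- LSK cells read 4.77 and 4.82 against 5.42 and 5.93, a difference of 0.88 ± 0.33 or at least 1.84-fold. This last group of irradiated cells had the lowest Cd80 of the 4, with no overlap with the next, while its unirradiated arrays overlapped those of WT LSK cells. Leaving out 1 irradiated pool moved the WT LSK difference between 1.33 and 2.23.

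By the other row, the unirradiated levels were under the array median in all 4 groups, so the folds are lower bounds. WT LSK cells read 4.02 and 4.71 against 6.63 and 6.38 after radiation, a difference of 2.14 ± 0.26 or at least 4.40-fold. Parp-2-/- LSK cells read 4.27 and 4.33 against 5.90 and 6.44, a difference of 1.87 ± 0.26 or at least 3.65-fold. The 2 genotypes thus overlapped after radiation by this row. WT MP cells read 4.24 and 4.29 against 7.59 and 8.02, a difference of 3.54 ± 0.26 or at least 11.6-fold. Parp-2-/- MP cells read 4.55 and 4.07 against 7.68 and 7.86, a difference of 3.46 ± 0.26 or at least 11-fold. The irradiated MP arrays stood above the irradiated LSK arrays in both genotypes by this row, as did those of 24.5% of all rows in WT and 21.7% in Parp-2-/- cells.

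Cd86, the second ligand of CD28 and CTLA-4, stayed under the array median on all arrays but pool 2 of unirradiated Parp-2-/- LSK cells. In Parp-2-/- LSK cells it read 4.56 and 5.62 unirradiated and 3.73 and 3.48 after 5 Gy, a difference of -1.49 ± 0.32 or at least 2.80-fold lower. Without pool 2 of the unirradiated cells that difference was -0.95, and without pool 1 it was -2.02. In WT LSK cells it read 4.47 and 4.35 against 3.68 and 3.38, a difference of -0.88 ± 0.32 between groups that both lay under the median. The irradiated LSK arrays were below the unirradiated ones in both genotypes, as were those of 20.5% of all rows in WT and 17.9% in Parp-2-/- cells. In MP cells the arrays overlapped: they read 3.38 and 3.14 against 3.72 and 3.27 in WT and 3.57 and 2.86 against 3.28 and 2.86 in Parp-2-/- cells.

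Cd55, the complement regulator, differed most in LSK cells. In WT LSK cells it read 4.53 and 6.13 unirradiated and 8.27 and 8.71 after 5 Gy, a difference of 3.16 ± 0.41 or 8.92-fold. The unirradiated pools lay far apart, and the difference was 2.36 without pool 1 and 3.96 without pool 2. In Parp-2-/- LSK cells it read 5.02 and 5.67 against 8.45 and 8.82, a difference of 3.30 ± 0.41 or 9.82-fold. MP cells started higher and ended at about the same level. WT MP cells read 6.44 and 6.31 against 8.56 and 8.62, a difference of 2.22 ± 0.41 or 4.65-fold. Parp-2-/- MP cells read 6.47 and 7.19 against 8.86 and 8.85, a difference of 2.02 ± 0.41 or 4.05-fold. No unirradiated array reached an irradiated one. The increase of Cd55 ranked 6 and 9 of all rows in WT and Parp-2-/- LSK cells and 32 and 33 in MP cells. In the order WT LSK, Parp-2-/- LSK, WT MP and Parp-2-/- MP, Tnfsf4 ranked 2, 4, 1 and 1. The main row of Cd80 ranked 74, 425, 62 and 56, and Icam1 2150, 265, 175 and 388. These ranks describe genes chosen on the same responses.

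The order of the Cd55 group means was 8.85 in irradiated Parp-2-/- MP, 8.64 in Parp-2-/- LSK, 8.59 in WT MP and 8.49 in WT LSK, then 6.83 and 6.38 in unirradiated Parp-2-/- and WT MP, and 5.34 and 5.33 in unirradiated Parp-2-/- and WT LSK. The last 3 irradiated groups overlapped with their neighbours, as did the 2 unirradiated LSK groups.

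Icam1, the integrin ligand, was above the array median everywhere. It had the smallest increase of the 4 except in Parp-2-/- LSK cells, where the main row of Cd80 differed by less (0.88). In WT LSK cells it read 5.77 and 5.79 unirradiated and 6.01 and 6.48 after 5 Gy, a difference of 0.47 ± 0.18 or 1.38-fold, and of 0.23 without pool 2 of the irradiated cells. In Parp-2-/- LSK cells it read 5.09 and 5.39 against 6.46 and 6.23, a difference of 1.11 ± 0.18 or 2.15-fold. Irradiated levels in these 2 groups overlapped, and the unirradiated ones did not, WT being higher, as in 19.3% of all rows. WT MP cells read 5.45 and 5.33 against 6.47 and 6.61, a difference of 1.15 ± 0.18 or 2.22-fold. Parp-2-/- MP cells read 5.42 and 5.40 against 6.24 and 6.10, a difference of 0.76 ± 0.18 or 1.70-fold. The group means ran from 6.54 in irradiated WT MP down to 5.24 in unirradiated Parp-2-/- LSK, and the 4 irradiated groups were the 4 highest.

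**Figure D2:**
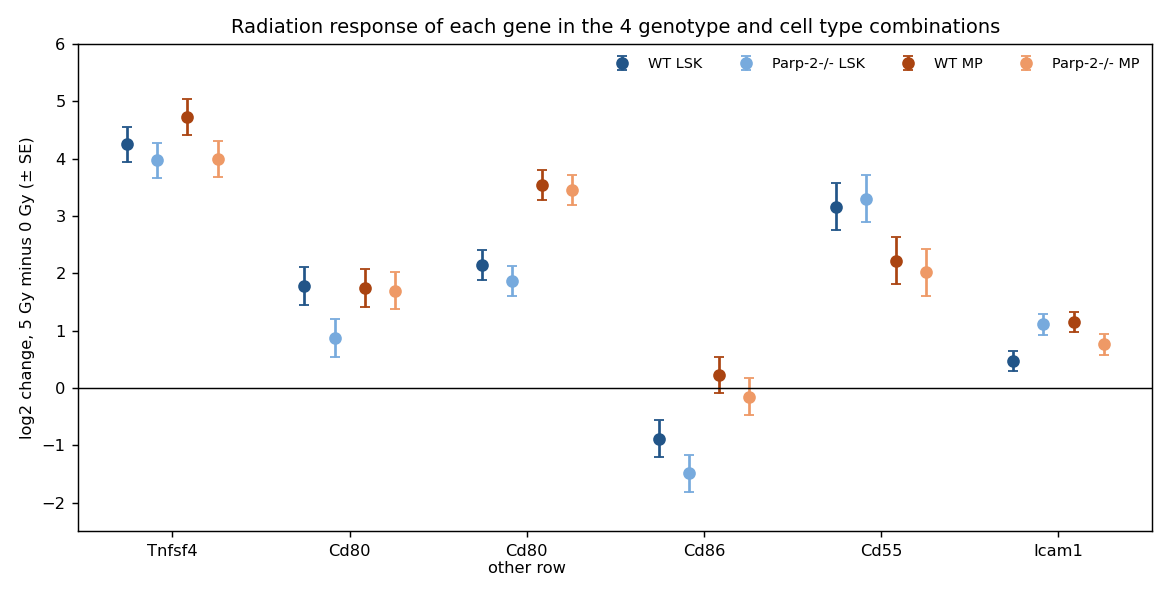
The log2 difference between irradiated and unirradiated cells is plotted with its standard error for each gene in the 4 combinations of genotype and cell type (n = 2 pools per group). Tnfsf4 lies at 3.97 to 4.73, the points of Cd55 are higher in LSK than in MP cells and those of the other row of Cd80 the reverse (neither called as an interaction), and Cd86 lies below 0 in LSK cells.

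No difference between WT and Parp-2-/- cells was called in any of the 5 genes. None of the 5 passed an adjusted p of 0.05 (limma, Benjamini-Hochberg over 22961 rows, two-sided) in unirradiated LSK, unirradiated MP, irradiated LSK or irradiated MP cells, or in the mean over all 4. Over all rows the test called 0% in unirradiated LSK cells, 0.00436% in unirradiated MP, 0.0174% in irradiated LSK, and 0.00871% in irradiated MP and in the mean, so few calls of any kind were made. In unirradiated LSK cells 2137 rows had an unadjusted p under 0.05. At an unadjusted p under 0.05, Icam1 in unirradiated LSK cells, Cd80 in irradiated LSK cells and Icam1 in the mean were the only ones of the 5.

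Cd80 in irradiated LSK cells had the largest of these differences. Parp-2-/- LSK cells read 5.42 and 5.93 and WT LSK cells 6.32 and 7.21, a difference of -1.09 ± 0.33 with a 95% interval of -1.82 to -0.37 and an adjusted p of 0.332. By this row both Parp-2-/- arrays lay below both WT arrays, as did those of 14.8% of all rows. By the other row of Cd80 the arrays overlapped, with a difference of -0.34 ± 0.26 (95% interval -0.90 to 0.22, adjusted p = 0.728). Icam1 in unirradiated LSK cells was also lower in Parp-2-/- cells: the difference was -0.54 ± 0.18 (95% interval -0.92 to -0.15, adjusted p = 0.343). Both Parp-2-/- arrays lay below both WT arrays, as did those of 19.3% of all rows.

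The mean over the 4 combinations is given with its interval for each gene. For Cd86, and for Tnfsf4 in unirradiated cells, most arrays lay under their median, so these means hold differences that are not measured ones. Averaged over the 4 combinations, Parp-2-/- minus WT was 0.23 ± 0.15 for Tnfsf4 (95% interval -0.10 to 0.57) and 0.22 ± 0.21 for Cd55 (-0.23 to 0.67). It was -0.21 ± 0.17 for Cd80 (-0.57 to 0.15), 0.07 ± 0.16 for Cd86 (-0.28 to 0.42) and -0.20 ± 0.09 for Icam1 (-0.39 to 0.00, adjusted p = 0.913). The adjusted p of the mean lay between 0.913 and 0.990 for the 5 genes. Cd86 in unirradiated LSK cells differed by 0.68 (95% interval -0.03 to 1.38, adjusted p = 0.559), where the WT arrays lay under the median. That value was 0.15 without pool 2 and 1.21 without pool 1 of the Parp-2-/- cells.

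Whether the response itself differed between genotypes was tested as an interaction, which is made of the responses that entered the choice of genes. In LSK cells the response of Parp-2-/- minus that of WT was -0.28 ± 0.44 for Tnfsf4 (95% interval -1.23 to 0.67), 0.14 ± 0.58 for Cd55 (-1.13 to 1.41) and -0.90 ± 0.47 for Cd80 (-1.92 to 0.13, adjusted p = 0.587). By the other row of Cd80 it was -0.27 ± 0.36 (-1.06 to 0.52, adjusted p = 0.863). It was 0.64 ± 0.25 for Icam1 (0.09 to 1.18), the one of the 5 with an unadjusted p under 0.05, and its adjusted p was 0.447. The test called 0.00871% of all rows here, none of them among the 5. In MP cells the same difference was -0.74 ± 0.44 for Tnfsf4 (95% interval -1.69 to 0.21), and the adjusted p of all 5 genes was 1. Of all rows 0% were called there, with 199 rows, none of the 5 genes among them, at an unadjusted p under 0.05.

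Between LSK and MP cells at rest, Cd86 and Cd55 were called in opposite directions. Averaged over both unirradiated genotypes, Cd86 was higher in LSK cells, with a fitted difference of 1.51 ± 0.23 (95% interval 1.01 to 2.01, adjusted p = 0.00148, limma). All MP arrays and both WT LSK arrays lay under the array median for Cd86, so the size of this difference is not a measured one. Cd55 was lower in LSK cells, with a difference of -1.27 ± 0.29 (95% interval -1.90 to -0.63, adjusted p = 0.0134). These were 2 of the 5 genes, against 14.9% of all rows called in the same comparison. Tnfsf4 (0.29 ± 0.22, 95% interval -0.19 to 0.76), Cd80 (-0.28 ± 0.24, -0.79 to 0.23) and Icam1 (0.11 ± 0.13, -0.16 to 0.39) were not called. Over all tested rows LSK minus MP had a median of 0.104 here. The unirradiated arrays of this comparison also enter the radiation responses.

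The Cd86 difference came from levels near background. In Parp-2-/- cells LSK arrays read 4.56 and 5.62 and MP arrays 3.57 and 2.86, a difference of 1.87 ± 0.32 (adjusted p = 0.0100), at least 3.66-fold, in a comparison that called 3.34% of all rows. Without pool 2 of unirradiated Parp-2-/- MP cells the difference was 1.51 and the adjusted p 0.139. In WT cells the difference was 1.15 ± 0.32 (adjusted p = 0.0613), where 5.23% of all rows were called and both groups lay under the array median. In the mean over genotypes Cd86 was called in 16 of 16 fits that left out 1 array, at 1.24 to 1.77.

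For Cd55 the levels at rest were 4.53 and 6.13 in WT LSK against 6.44 and 6.31 in WT MP cells, and 5.02 and 5.67 in Parp-2-/- LSK against 6.47 and 7.19 in Parp-2-/- MP cells. No LSK array reached an MP array of its genotype, as in 22.3% of all rows in WT and 21.8% in Parp-2-/- cells. Within a genotype the difference was -1.05 ± 0.41 in WT (adjusted p = 0.158) and -1.49 ± 0.41 in Parp-2-/- cells (adjusted p = 0.0745), so the call rested on the mean of both. It was lost without pool 2 of unirradiated Parp-2-/- MP cells (-1.09, adjusted p = 0.0623) and without pool 1 of unirradiated WT MP cells (-1.23, adjusted p = 0.0501).

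After radiation no difference between the cell types was called in Cd86 or Cd55. Cd55 differed by -0.10 in WT (95% interval -1.0 to 0.79) and -0.21 in Parp-2-/- cells (-1.11 to 0.68). Cd80 was the 1 gene called in irradiated cells. In Parp-2-/- cells the main row was lower in LSK cells, with a difference of -1.31 ± 0.33 (95% interval -2.04 to -0.59, adjusted p = 0.0479), where 4.07% of all rows were called. This call was lost in 11 of 16 fits that left out 1 array (adjusted p from 0.0302 to 0.284). It was kept without any single WT LSK array and without pool 2 of irradiated Parp-2-/- LSK cells. The other row gave -1.60 ± 0.26 (-2.16 to -1.04, adjusted p = 0.00719).

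In irradiated WT cells the rows of Cd80 parted. The main row differed by -0.02 (95% interval -0.74 to 0.71, adjusted p = 0.980), and the other row by -1.30 ± 0.26 (-1.86 to -0.74, adjusted p = 0.0259), where 2.45% of all rows were called. At rest LSK minus MP in the mean over genotypes was -0.28 by the main row and 0.04 by the other, neither called. For Tnfsf4 the intervals after radiation were -0.79 to 0.55 in WT and -0.48 to 0.86 in Parp-2-/- cells, and for Icam1 -0.68 to 0.09 and -0.21 to 0.56.

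The response in LSK minus that in MP cells is also made of the responses that entered the choice of genes. It was not called for any of the 5 genes or for any other row (0%), with 1272 rows in WT and 1230 in Parp-2-/- cells at an unadjusted p under 0.05. Among those rows were Cd86 and the other row of Cd80 in both genotypes, Cd55 in Parp-2-/- and Icam1 in WT cells. For Cd55 it was 0.94 ± 0.58 in WT (95% interval -0.33 to 2.21, adjusted p = 0.959; 0.14 to 1.74 when either unirradiated WT LSK pool was left out) and 1.28 ± 0.58 in Parp-2-/- cells (0.01 to 2.54, adjusted p = 0.920). For the other row of Cd80 it was -1.40 ± 0.36 in WT (95% interval -2.19 to -0.61, adjusted p = 0.619) and -1.59 ± 0.36 in Parp-2-/- cells (-2.38 to -0.80, adjusted p = 0.463). By the main row of Cd80 it was 0.04 ± 0.47 and -0.81 ± 0.47. For Icam1 in WT cells it was -0.68 ± 0.25 (-1.23 to -0.14, adjusted p = 0.833).

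**Figure D3:**
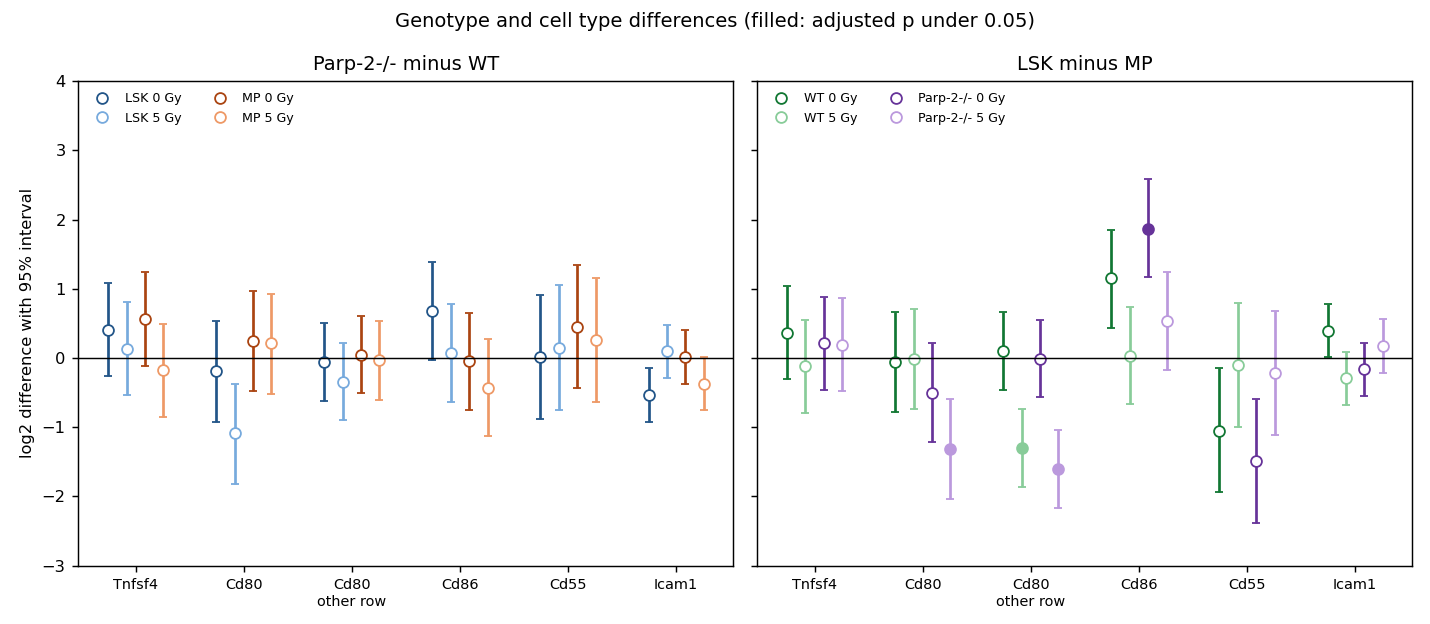
The left panel plots Parp-2-/- minus WT and the right panel LSK minus MP for each gene, as log2 differences with 95% intervals, and filled points have an adjusted p under 0.05. No point is filled on the left, and on the right Cd86 in unirradiated Parp-2-/- cells is filled above 0, and Cd80 in irradiated cells is filled below 0, by both rows in Parp-2-/- and by the other row alone in WT cells.

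The receptors of these ligands and their nearest relatives were measured on the same arrays. Tnfrsf4, which encodes OX40, lay above the array median on 1 of 16 arrays, and its radiation differences ran from -0.40 to 0.01. Cd28 lay above the median on 2 arrays, with differences of -1.57 in WT LSK, -0.98 in Parp-2-/- LSK, -0.50 in WT MP and -0.26 in Parp-2-/- MP cells, none called. Ctla4 lay above it on none, and its difference in WT LSK cells was -0.65 (adjusted p = 0.0544). The known partners of Tnfsf4, Cd80 and Cd86 on T cells were thus under the array median on nearly all arrays.

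Among the other B7 ligands, Cd274 (PD-L1) lay above the median on 16 arrays. Its levels in WT LSK cells were 6.28 and 5.30 unirradiated and 6.19 and 6.94 after 5 Gy, which overlap. Its radiation differences were 0.78, 0.57, 0.71 and 0.64 (SE 0.33) in WT LSK, Parp-2-/- LSK, WT MP and Parp-2-/- MP cells, with adjusted p of 0.304, 0.570, 0.818 and 0.969. Pdcd1lg2 (PD-L2) was above the median on 0 arrays, with differences of 0.07 to 0.60. Icosl, the ligand of ICOS, differed by 0.01 to 0.31.

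On the side of adhesion, Itgal and Itgb2 encode the 2 chains of LFA-1, the receptor of Icam1. Itgb2 differed after radiation by 0.91 ± 0.21 in WT LSK (adjusted p = 0.0517), -0.28 in Parp-2-/- LSK, 0.73 in WT MP (adjusted p = 0.258) and 0.61 in Parp-2-/- MP cells (adjusted p = 0.527), and Itgal by -0.17 to 0.33. Icam2, a relative of Icam1, differed by -0.30 to 0.32. Cd55b, the close paralogue of Cd55, read 2.58 to 3.21 and differed by 0.07 to 0.22, and Adgre5, which encodes the Cd55 receptor CD97, differed by 0.00 to 0.53. None of these was called, but Itgb2 in WT LSK cells was with further quantile normalisation or the filter on low rows.

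The wider pathways were taken as 7 lists of 96 related genes, of which 85 were measured. They hold the B7 and CD28 families, TNF ligands, co-stimulatory TNF receptors, complement control, ICAMs with integrins and selectins, antigen presentation, and ligands of NK and T cells. After radiation 1 of the 85 rose in WT LSK cells, 1 in Parp-2-/- LSK, 1 in WT MP and 2 in Parp-2-/- MP cells, and 0 fell. The rises are 1.18%, 1.18%, 1.18% and 2.35% of the list, beside 1.18%, 0.727%, 0.571% and 0.505% of all rows that rose. Of all rows 0.623%, 0.74%, 0.1% and 0.0827% fell in the same 4 responses, and at an unadjusted p under 0.05 (limma) 9, 3, 5 and 7 of the 85 were higher and 12, 6, 2 and 1 lower. Fitted on the arrays of a cell type alone, 5 of the 85 rose and 1 fell in WT MP cells, 3 rose and 1 fell in Parp-2-/- MP cells, and 0 were called in either LSK response. The median of the 85 genes lay between -0.02 and 0.03 in the 4 responses.

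The gene of the lists that rose most was Tnfrsf18 (GITR), a co-stimulatory TNF receptor of T cells. In WT MP cells it read 5.40 and 4.99 unirradiated and 7.46 and 7.99 after 5 Gy, a rise of 2.53 ± 0.35 (adjusted p = 0.00433, limma). In Parp-2-/- MP cells it read 5.03 and 5.16 against 7.67 and 8.34, a rise of 2.91 ± 0.35 (adjusted p = 0.00177). Irradiated and unirradiated arrays lay well apart in both. The call in WT MP cells was lost without pool 2 of the irradiated (2.27, adjusted p = 0.0857) or of the unirradiated WT MP cells (2.33, adjusted p = 0.0802), and that in Parp-2-/- MP cells was kept in 16 of 16 fits without 1 array. In LSK cells the differences were 1.13 ± 0.35 in WT (adjusted p = 0.143) and 0.75 ± 0.35 in Parp-2-/- cells (adjusted p = 0.433), not called.

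Tap1, the peptide transporter of antigen presentation, rose by 1.32 ± 0.25 in Parp-2-/- LSK (adjusted p = 0.0209) and by 1.25 ± 0.25 in Parp-2-/- MP cells (adjusted p = 0.0493). In WT cells it differed by 0.85 ± 0.25 in LSK (adjusted p = 0.119) and 0.79 ± 0.25 in MP cells (adjusted p = 0.352), not called. No difference in its response between genotypes was called. Without 1 array the Tap1 difference was 0.94 to 1.70 in Parp-2-/- LSK and 1.12 to 1.38 in Parp-2-/- MP cells. Both calls ended in most fits that left out a compared array. The call in Parp-2-/- MP cells also ended in most fits that left out an array of another group. In Parp-2-/- LSK cells Tap1 read 5.52 and 6.28 unirradiated and 7.27 and 7.18 after 5 Gy, with no overlap. Sele, the E-selectin gene, rose by 1.03 ± 0.23 in WT LSK cells (adjusted p = 0.0467), and by 0.77 to 1.29 without 1 array. This call too ended in most fits that left out a compared array, and in most that left out an array of another group. Sele read 5.25 and 5.77 in WT LSK cells before and 6.56 and 6.51 after radiation. Its other differences were 0.23 in Parp-2-/- LSK, 0.43 in WT MP and 0.80 in Parp-2-/- MP cells, not called.

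**Figure D4:**
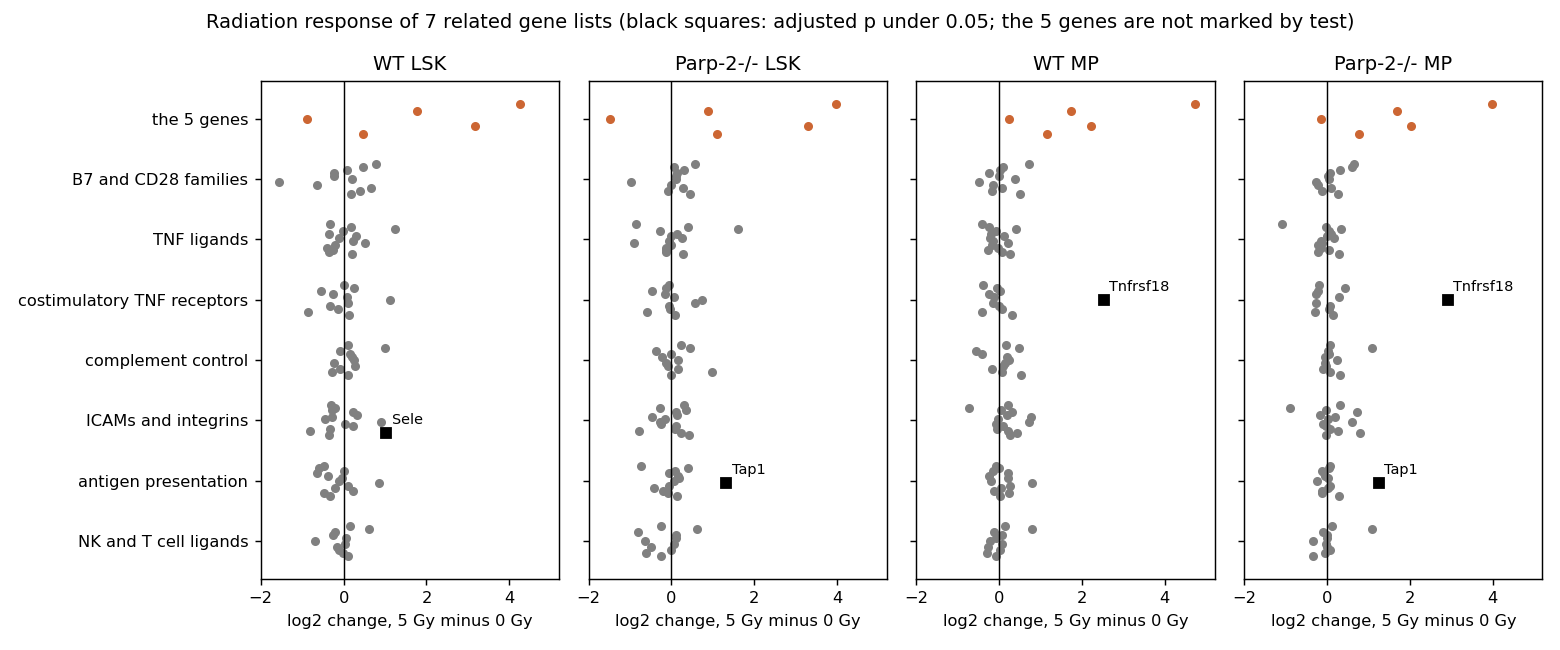
Each point is the log2 difference between irradiated and unirradiated cells of a gene, with the 5 genes in orange in the top row, the 7 related lists in grey, and black squares for list genes with an adjusted p under 0.05. Most list genes lie near 0, and the black squares are Sele in WT LSK, Tap1 in both kinds of Parp-2-/- cells and Tnfrsf18 in both kinds of MP cells. Tap1 also lies above 0, not called, in WT LSK (0.85) and WT MP cells (0.79).

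Between unirradiated LSK and MP cells 10 of the 85 genes were higher in LSK (11.8%, beside 5.04% of all rows) and 3 lower (3.53%, beside 9.85%). The higher ones included Cd27, a co-stimulatory TNF receptor, by 1.48 ± 0.17 (adjusted p = 0.000262), and Ltb, which encodes lymphotoxin beta, by 1.64 ± 0.46 (adjusted p = 0.0323). Without 1 array the difference was 1.03 to 2.25 for Ltb and 1.33 to 1.62 for Cd27. The call of Ltb ended in most fits that left out a compared array. Cd27 read 9.23 to 9.51 on the 4 LSK arrays and 7.56 to 8.29 on the 4 MP arrays. The lower ones were Icam4, an erythroid member of the ICAM family, at -1.18 ± 0.14 (adjusted p = 0.000363), Sele at -1.0 ± 0.16 (adjusted p = 0.00221) and the integrin chain Itgb1 at -0.54 ± 0.10 (adjusted p = 0.00501). Between genotypes 0 of the 85 were called by limma in unirradiated LSK, irradiated LSK, unirradiated MP or irradiated MP cells. The test called 0%, 0.0174%, 0.00436% and 0.00871% of all rows there. At an unadjusted p under 0.05 (limma) were 8, 6, 0 and 5 of the 85, beside 2137, 2193, 247 and 411 of all 22961 rows.

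Markers of mature immune cells, which carry these molecules in other tissues, were followed in the same arrays. Of 27 measured markers of dendritic cells, macrophages and monocytes, B cells, and T and NK cells, 0 were called by limma in the 4 responses. In WT LSK, Parp-2-/- LSK, WT MP and Parp-2-/- MP cells 6, 3, 1 and 1 had an unadjusted p under 0.05. Over all 22961 rows 1.8%, 1.47%, 0.671% and 0.588% were called in these responses. An unadjusted p under 0.05 (limma) was found in 3373, 2709, 1432 and 1321 of all rows. In no group did any of the 8 dendritic markers or the 6 T and NK markers lie above the array median on both arrays, and the dendritic mean was 3.82 to 4.23 unirradiated and 3.80 to 4.14 irradiated. The 7 macrophage and monocyte markers had a mean of 4.64 to 4.95 and 4.61 to 4.89, with 2 to 3 above the median, and the 6 B cell markers 4.03 to 4.70 and 4.14 to 4.40, with 1 to 2 above it. The T and NK mean was 3.44 to 3.83 and 3.35 to 3.68. In the lists of other cells, 5 changes were called after radiation, to be read beside the shares of all rows given above. Each was the only called gene of its list in that response, among 7 mast cell and basophil, 4 megakaryocyte or 8 MP markers. In WT LSK cells the basophil marker Mcpt8 rose from 5.44 and 5.65 to 6.59 and 7.69, and the platelet gene Gp9 fell from 6.10 and 6.29 to 5.25 and 5.44. Elane, the neutrophil elastase gene of the MP list, rose in Parp-2-/- LSK cells, and Gfi1b of the same list fell in WT and in Parp-2-/- MP cells. The neutrophil marker S100a8 read 3.76 to 7.97 over the 16 arrays. It is 1 of 7 measured neutrophil markers, of which 0 were called in the 4 responses. Their median change was 0.06 to 0.17, and 1 to 3 of them lay above the array median on both arrays of a group. The part of these changes in the values of the 5 genes was not tested.

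The rows most like each gene over the 16 arrays were found by Pearson's r among rows with a single symbol. Predicted genes and unnamed clones (symbols of the Gm, Rik and LOC kinds) were left out, and each symbol was taken once. The r values are given as a description, since the points share the irradiated and unirradiated groups. For Tnfsf4 they were Tnfrsf10b (r = 0.989), Phlda3 (0.988), Trp53inp1 (0.982) and Epha2 (0.982). For Cd55 they were Ccng1 (0.983), Mdm4 (0.976), Gne (0.966) and Pvt1 (0.961). Between Tnfsf4 and Cd55 themselves r was 0.90. For Cd80 they were Yeats2 (0.932), Ercc5 (0.929), Klhl22 (0.928) and Enc1 (0.924), and for its other row Qpctl (0.973), Cpt1c (0.969), Kank3 (0.963) and Mx1 (0.960). For Icam1 they were Rabgap1 (0.938), Hpcal1 (0.935), Mdm2 (0.931) and Mreg (0.930). The rows most like Cd86 were others, Tbxas1 (0.917), Selenop (0.888), Klhl4 (0.887) and Nav1 (0.877).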

How the data were processed

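The 16 Affymetrix Mouse Gene 1.0 ST arrays are described by 34760 rows of deposited log2 intensities, 1 column per pool. RMA, limma, affy 2.10 and R 2.15 are listed in the submitters' processing notes, with neither role nor order. The log2 base was read from the values. The genome build and the arrays normalised as 1 set were not given in the sources used here. Values were used as deposited. The deposited arrays did not share 1 distribution: the SD over rows was at most 2.03 on LSK arrays and at least 2.05 on MP arrays. LSK minus MP had a median of 0.0857 to 0.104 over all tested rows, which the main fits did not correct. Levels are relative to the other rows of an array. The 22961 rows with at least 1 symbol were fitted as 8 group means over all 16 arrays with limma 3.58.1 in R 4.3.3 (8 residual and 4.35 prior degrees of freedom), with Benjamini-Hochberg adjustment over all rows in each of 18 comparisons and a threshold of 0.05. The number of arrays limits the precision: over all rows the SE had a median of 0.207 between groups and 0.292 in interactions.

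The genes and lists were chosen with earlier results of these data known. Besides the 5 genes, the text names fixed relatives and called list genes (up to 4 per list and comparison). It also names the 4 rows most like each gene among named genes with a single symbol. The labels do not say whether same-numbered pools are paired, and the main fits did not pair them. Deviations of same-numbered pools correlated at -0.17 to 0.23 over 28 pairs of groups, which does not exclude pairing in some of them. Alternatives were each cell type alone, a pool block, further quantile normalisation, an intensity trend, a filter on low rows, the other row of Cd80 and leaving out each array.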

Additional observations from a re-analysis of the deposited data

How the results depend on the processing

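With 2 arrays per group the sign of small differences was not stable, and levels under the array median limit Cd86, the other row of Cd80 and unirradiated Tnfsf4. Fits on the arrays of a cell type alone give no LSK against MP comparison. They leave the fitted differences the same by construction, so only calls could change, and no genotype call of the 5 genes did. An intensity trend changed no call of the 5 genes, and the filter on low rows left out Cd86 and changed no call of the other 4. Further quantile normalisation kept 83 of 90 values. It turned the sign of Tnfsf4, Cd80, Cd86 and Cd55 between irradiated WT LSK and MP cells (0.11, 0.15, -0.18 and 0.14), of the Tnfsf4 cell type by radiation term in Parp-2-/- cells (0.26) and of Cd55 between genotypes in unirradiated LSK cells (-0.01), and it ended the Cd80 call in irradiated Parp-2-/- cells (-1.23, adjusted p = 0.0741, limma). The other row of Cd80 gave radiation differences of 2.14, 1.87, 3.54 and 3.46, turned the sign of the genotype difference in irradiated MP (-0.03), of LSK minus MP at rest in WT (0.10) and in the mean (0.04) and of cell type by radiation in WT (-1.40), and made the irradiated WT cell type difference a call (-1.30, adjusted p = 0.0259). A block for the pool number, which the labels do not describe as a pairing, made Cd55 between unirradiated Parp-2-/- LSK and MP cells a call (-1.49, adjusted p = 0.0335, limma). It changed no other call of the 5 genes. The cause of these changes was not tested.

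Leaving out 1 array at a time kept the direction and side of 1054 tested values, turned the sign of 47, added 5 calls and ended 14, and moved 14 radiation differences by more than their SE, and the lone array of a group was assumed to vary like the others. The log2 difference of Tnfsf4 ran from 3.44 to 4.50 for radiation in Parp-2-/- LSK, -0.40 to 0.66 for genotype in irradiated LSK and -0.81 to 0.25 for genotype by radiation in LSK. Tnfsf4 also ran from -0.17 to 0.58 for cell type in unirradiated Parp-2-/-, -0.27 to 0.03 for cell type in irradiated WT and -0.34 to 0.72 for cell type in irradiated Parp-2-/-. Tnfsf4 also ran from -0.55 to 0.51 for cell type by radiation in Parp-2-/-. The log2 difference of Cd80 ran from 1.33 to 2.23 for radiation in WT LSK, -0.45 to 0.06 for genotype in unirradiated LSK and -0.07 to 0.56 for genotype in unirradiated MP. Cd80 also ran from -0.12 to 0.53 for genotype in irradiated MP, -0.37 to 0.29 for genotype by radiation in MP and -0.31 to 0.19 for cell type in unirradiated WT. Cd80 also ran from -0.46 to 0.43 for cell type in irradiated WT, -1.64 to -0.98 for cell type in irradiated Parp-2-/- and -0.41 to 0.49 for cell type by radiation in WT. The log2 difference of Cd86 ran from -2.02 to -0.95 for radiation in Parp-2-/- LSK, -0.51 to 0.21 for radiation in Parp-2-/- MP and -0.41 to 0.31 for genotype in unirradiated MP. Cd86 also ran from -0.08 to 0.22 for genotype in irradiated LSK, -0.06 to 0.20 for mean genotype difference and 1.03 to 1.27 for cell type in unirradiated WT. Cd86 also ran from 1.34 to 2.40 for cell type in unirradiated Parp-2-/- and -0.19 to 0.26 for cell type in irradiated WT. The log2 difference of Cd55 ran from 2.36 to 3.96 for radiation in WT LSK, -0.79 to 0.81 for genotype in unirradiated LSK and -0.07 to 0.37 for genotype in irradiated LSK. Cd55 also ran from -0.66 to 0.94 for genotype by radiation in LSK, -0.55 to 0.16 for genotype by radiation in MP and -1.84 to -0.25 for cell type in unirradiated WT. Cd55 also ran from -1.85 to -1.13 for cell type in unirradiated Parp-2-/-, -0.33 to 0.12 for cell type in irradiated WT and -1.67 to -0.87 for mean cell type difference at rest. The log2 difference of Icam1 ran from 0.23 to 0.70 for radiation in WT LSK, -0.04 to 0.08 for genotype in unirradiated MP and -0.14 to 0.33 for genotype in irradiated LSK. Counts of called rows ranged from 242 to 537 for radiation in WT LSK, 189 to 469 for radiation in Parp-2-/- LSK, 39 to 176 for radiation in WT MP, 43 to 150 for radiation in Parp-2-/- MP. They also ranged from 0 to 148 for genotype in unirradiated LSK, 1 to 2 for genotype in unirradiated MP, 0 to 180 for genotype in irradiated LSK, 1 to 3 for genotype in irradiated MP. They also ranged from 2 to 7 for mean genotype difference, 0 to 95 for genotype by radiation in LSK, 186 to 1614 for cell type in unirradiated WT, 88 to 980 for cell type in unirradiated Parp-2-/-. They also ranged from 10 to 2240 for cell type in irradiated WT, 123 to 1325 for cell type in irradiated Parp-2-/-, 1707 to 3877 for mean cell type difference at rest, 0 to 9 for cell type by radiation in WT. They ranged from 0 to 10 for cell type by radiation in Parp-2-/-. The added calls were Cd86 between unirradiated WT LSK and MP cells without either unirradiated Parp-2-/- LSK pool (adjusted p = 0.0254), Cd55 in the same comparison without pool 2 of unirradiated WT LSK cells (0.0175), and Cd55 between unirradiated Parp-2-/- LSK and MP cells without either unirradiated WT LSK pool (0.0124).

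Calls over all rows moved by more than 1.5 times under some alternatives. With a cell type alone the radiation calls went from 413, 337, 154 and 135 to 35, 51, 390 and 365 in WT LSK, Parp-2-/- LSK, WT MP and Parp-2-/- MP cells. Between genotypes they went from 4 to 0 in irradiated LSK, from 2 to 1 in irradiated MP and from 2 to 0 in the LSK interaction. The pool block gave 2 in unirradiated LSK in place of 0, and 0 in the LSK interaction. Quantile normalisation gave 14 in unirradiated LSK, 8 in irradiated LSK, 1 in irradiated MP and 6 in the LSK interaction. It took the cell type calls from 1200 to 726 in unirradiated WT, from 562 to 195 in irradiated WT, from 935 to 534 in irradiated Parp-2-/- cells and from 3419 to 2133 in the mean at rest. The trend gave 1 call in irradiated MP and 1 in the LSK interaction, and the filter 4 in that interaction. Among list genes, Tap1 in Parp-2-/- MP cells was lost with the pool block (adjusted p = 0.0627), quantile normalisation (0.118) and the trend (0.0684), Tap1 in Parp-2-/- LSK cells with the cell type alone (0.223), and Sele in WT LSK cells with the block (0.0597), the trend (0.0650) and the cell type alone (0.172). Calls were also gained. With the cell type alone H60b, Itgam, Itgb2 and Tap1 rose and Icam4 fell in WT MP cells, and H60b rose and Icam4 fell in Parp-2-/- MP cells. In WT LSK cells Itgb2 rose with quantile normalisation and with the filter, and Ctla4 fell with the trend.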
